A study of Mus musculus with 16 samples.

Results

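The circadian clock genes described here were 10 genes, Dbp, Tef, Per1, Per2, Per3, Nr1d1, Nr1d2, Ciart, Npas2 and Clock, out of 22911 gene symbols that could be attached to probes of a mouse expression array. They were chosen by name, with earlier results of these data known. Each was read through the probes whose transcript accession belongs to it, 19 probes in all. The arrays measured RNA of whole kidneys from 16 mice, 4 of each of 4 genotypes, and the question asked here is how far the clock genes of single mice lay apart, within and between the genotypes. All mice were 6 months old, and no label gave the hour at which a kidney was taken. Wild-type mice (C57BL/6) were purchased, and the Fcgr2b-deficient and Sting-deficient lines came from other laboratories. The study crossed these lines, which gave the double-deficient mice and littermate controls. The Fcgr2b-/- group, which the labels also call the lupus mouse, lacked the inhibitory Fc gamma receptor IIb on a 129/C57BL/6 background. The study's own heading for lupus kidney arrays gave these mice a heterozygous Sting gt allele, which the labels do not mention. The double-deficient group lacked Fcgr2b and carried the Goldenticket allele of Sting, a functional loss of the DNA-sensing adaptor STING, on the same mixed background. The Sting-deficient group carried the Goldenticket allele alone, with strain background C57BL/6. Loss of Fcgr2b and the mixed background therefore cannot be told apart in any comparison below.

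The circadian clock is a feedback loop of transcription that runs in nearly every cell, the kidney's tubule cells included. CLOCK or its relative NPAS2 pairs with BMAL1, the product of Arntl, and the pair switches on the genes of its own inhibitors, the period proteins Per1, Per2 and Per3 and the repressor CIART. It also switches on Nr1d1 and Nr1d2, whose proteins REV-ERB alpha and REV-ERB beta in turn silence Arntl, Npas2 and Clock. Dbp and Tef encode relatives with a PAR leucine zipper that pass the rhythm on to output genes. RNA of the activators and RNA of Dbp and Nr1d1 are known for rising and falling at opposite times of day. In kidney the clock is known to pace salt and water transport.

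Promoter sequence was looked up for the members in the RefSeq table of build GRCm38.p6, which held 13 promoters of 9 of the 10 genes. The 250 bases before each start were searched on both strands for CACGTG (the E-box that the activator pair reads), CACGTT (an E-box-like form), TTATGTAA or TTACGTAA (the D-box that DBP and TEF read) and AGGTCA (the hexamer that the REV-ERB proteins read). Among all 32851 promoters of that table, 6.02% held the E-box, 3.85% the E-box-like form, 0.931% a D-box and 14.02% the hexamer. The windows printed here are those where members held more than 1 match, or where the match lay before both listed starts of a gene, and capitals mark the matched letters. Ciart held 3 E-boxes, at positions -116, -58 and -44 from the start, and 3 or more were found in 20 promoters of the whole table. Per3 held 2 D-boxes, at -205 and -158, and 2 or more were found in 7 promoters. Per1 held an E-box at -166 and a reverse hexamer at -137 before its first listed start, and Tef held an E-box before each of its 2 starts.
Ciart (chr3:95882247-95882364, minus strand): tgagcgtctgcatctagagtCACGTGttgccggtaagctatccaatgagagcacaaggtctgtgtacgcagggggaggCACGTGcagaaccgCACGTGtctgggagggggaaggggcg
Per3 (chr4:151044796-151044890, minus strand): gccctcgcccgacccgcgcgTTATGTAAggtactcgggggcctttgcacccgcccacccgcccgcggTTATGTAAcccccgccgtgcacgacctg
Per1 (chr11:69098763-69098837, plus strand): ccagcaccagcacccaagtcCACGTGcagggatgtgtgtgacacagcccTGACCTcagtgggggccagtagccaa
Tef first start (chr15:81802526-81802571, plus strand): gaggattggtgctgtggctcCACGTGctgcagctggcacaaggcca
Tef second start (chr15:81811256-81811301, plus strand): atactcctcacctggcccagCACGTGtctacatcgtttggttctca
The E-box-like letters lay at -28 before Nr1d1, and the hexamer lay at -77 before Nr1d2 and at -119 before 1 of the 3 starts of Clock. No match lay in the 250 bases before the single start of Dbp or of Npas2. These matches describe letters only and say nothing of binding.

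Of the 10 genes, 7 had a probe well above background on all 16 arrays. Per3 was well above background on 15 arrays, Npas2 on 12, and Ciart on 2. Ciart therefore missed the filter of 4 arrays that every test across probes used, and 9 members were tested among 35629 probes. Levels are given as log2 of the probe's signal minus log2 of the array's 75th percentile, for the gene's brightest probe. The 75th percentile ranged from 388 to 951 signal units, and Sting-deficient mouse 4 had the dimmest array. The arrays lay on 2 slides, each scanned on its own, with wild-type and Sting-deficient kidneys split evenly between them, 3 of 4 Fcgr2b-/- kidneys on the first slide and 3 of 4 double-deficient kidneys on the second. All 17 listed markers of proximal tubule, podocyte, thick limb with distal tubule and collecting duct were well above background on all 16 arrays. Of 5 listed adrenal genes, Cyp11b1 and Cyp11b2 of the adrenal cortex were well above background on none, Cyp21a1 and Th on all 16, and Star on 2 or 3 of 4 arrays in each genotype. The brighter Fcgr2b probe averaged 1.16 ± 0.44 in wild-type, -0.28 ± 0.34 in Fcgr2b-/-, -0.58 ± 0.41 in double-deficient and 0.26 ± 0.70 in Sting-deficient kidneys (SD, n = 4). Where that probe lies relative to the deletion is not given in the sources used here. In whole kidney, fewer cells of a type and less RNA per cell cannot be told apart.

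Dbp, the output gene, had the largest spread within genotypes of the members with a probe well above background on all arrays, an order that turned with the slide as a block (SD 0.91, against 0.97 for Nr1d1). In the wild-type kidneys of mice 1 to 4 its level was 1.32, 2.36, 1.46 and 3.28, and in the Fcgr2b-/- kidneys 1.73, 1.97, 2.88 and 3.80. In the double-deficient kidneys it was 1.07, 2.78, 3.36 and 3.28, and in the Sting-deficient kidneys 1.49, 1.77, 4.85 and 3.20. Every genotype held low and high mice, the 4 ranges overlapped, and mouse 1 was the lowest of each genotype. From the lowest to the highest of the 16 mice Dbp spanned 3.78 log2 units, a 13.7-fold range. A second Dbp probe followed the first with r = 0.996 over the 16 mice.

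Npas2, which stands in for CLOCK as the partner of BMAL1, was dim. Its level was -4.49, -4.10, -4.35 and -5.76 in the wild-type kidneys and -4.53, -4.04, -4.47 and -6.08 in the Fcgr2b-/- kidneys. It was -4.39, -5.28, -5.31 and -4.42 in the double-deficient kidneys and -4.89, -5.02, -6.99 and -3.53 in the Sting-deficient kidneys. Of these 16 readings 4 were not well above background, those of wild-type mouse 4, Fcgr2b-/- mouse 4, double-deficient mouse 2 and Sting-deficient mouse 3. For these the signal is bounded by the lowest signal well above background on the same array, which put them at no more than -5.56, -5.52, -5.24 and -4.93. The mouse with the highest Dbp had the lowest Npas2 reading in each genotype, but at these bounds that order was settled only in the wild-type and Fcgr2b-/- groups. In the other direction, the mouse with the lowest Dbp had the highest Npas2 reading in 1 of the 4 genotypes.

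Arntl, the gene of BMAL1, is not one of the 10 and was taken up after the values of Npas2 were seen. Its brightest probe read 0.15, -0.63, -0.43 and -1.01 in the wild-type kidneys and -1.14, -0.19, -0.69 and -1.25 in the Fcgr2b-/- kidneys. It read 0.17, -1.16, -0.88 and -0.81 in the double-deficient kidneys and -0.19, -0.13, -3.08 and -2.66 in the Sting-deficient kidneys. The mouse with the highest Dbp had the lowest reading of this probe in 3 of the 4 genotypes. The other 2 Arntl probes followed it only loosely over the 16 mice (r = 0.49 and 0.36), and in Sting-deficient mouse 4 they gave their highest readings of all mice where the brightest probe gave -2.66.

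**Figure D1:**
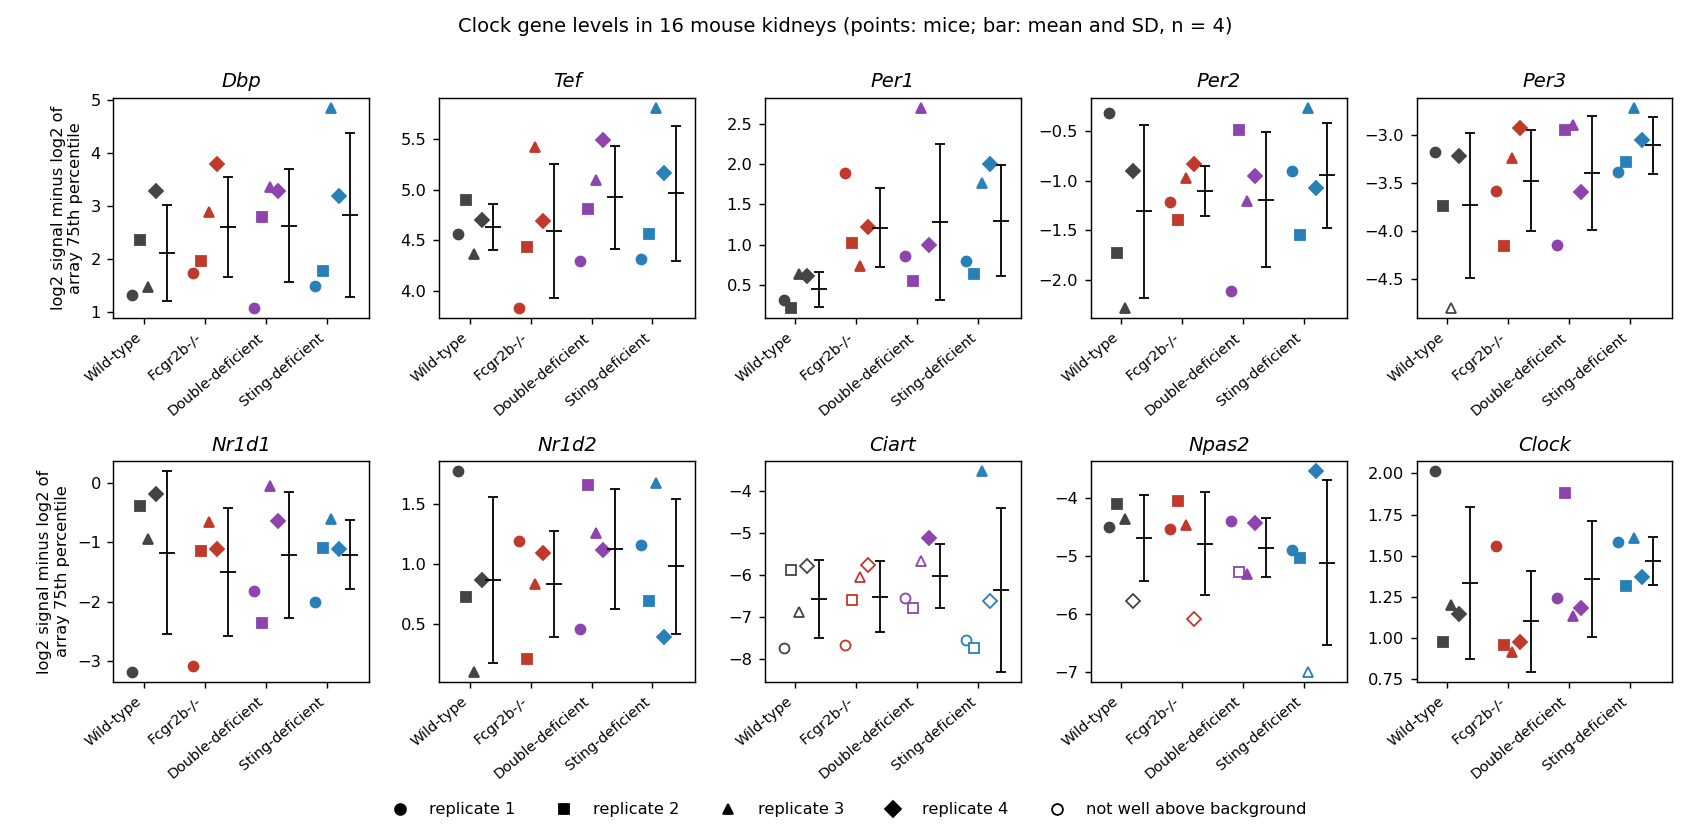
Level of each of the 10 clock genes (vertical axes, log2 signal minus log2 of the array's 75th percentile) in 16 kidneys by genotype. Points are mice with the marker giving the replicate number, open points were not well above background, and bars give mean and SD (n = 4); Dbp spans 1.07 to 4.85, and 4 of the 16 Npas2 points and 14 of the 16 Ciart points are open.

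Tef, the PAR relative of Dbp, was measured on all arrays at 4.56, 4.90, 4.36 and 4.70 in wild-type and 3.83, 4.43, 5.42 and 4.69 in Fcgr2b-/- kidneys. It was 4.29, 4.81, 5.10 and 5.49 in double-deficient and 4.32, 4.56, 5.81 and 5.16 in Sting-deficient kidneys. The groups overlapped, wild-type kidneys lay closest together (SD 0.23, n = 4), and Sting-deficient mouse 3 was the highest of the 16, as it was for Dbp. Ciart, the repressor with the 3 E-boxes printed above, was not well above background on any wild-type or Fcgr2b-/- array. Its 2 readings well above background were -3.53 in Sting-deficient mouse 3 and -5.11 in double-deficient mouse 4, and all other readings lay between -7.74 and -5.67. With so few readings no fold is given between the groups for Ciart.

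Nr1d1, the gene of REV-ERB alpha, was -3.19, -0.39, -0.95 and -0.18 in wild-type and -3.09, -1.14, -0.65 and -1.12 in Fcgr2b-/- kidneys. It was -1.82, -2.36, -0.04 and -0.64 in double-deficient and -2.02, -1.10, -0.61 and -1.11 in Sting-deficient kidneys. Wild-type mouse 1 and Fcgr2b-/- mouse 1 were the lowest of all and the groups overlapped. The range over the 16 mice was 3.15 log2 units, an 8.86-fold range. Nr1d2, the gene of REV-ERB beta, was 1.77, 0.73, 0.11 and 0.87 in wild-type and 1.19, 0.21, 0.83 and 1.09 in Fcgr2b-/- kidneys. It was 0.46, 1.66, 1.26 and 1.12 in double-deficient and 1.16, 0.69, 1.68 and 0.40 in Sting-deficient kidneys. Wild-type mouse 1 was thus the lowest of the 16 for Nr1d1 and the highest for Nr1d2.

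Per2, a period gene of the inhibitory limb, was -0.31, -1.73, -2.28 and -0.90 in wild-type and -1.21, -1.39, -0.97 and -0.83 in Fcgr2b-/- kidneys. It was -2.11, -0.49, -1.20 and -0.96 in double-deficient and -0.90, -1.55, -0.26 and -1.07 in Sting-deficient kidneys. Its high mice (wild-type 1, double-deficient 2 and Sting-deficient 3) were also the highest of their genotypes for Nr1d2, and the groups overlapped. The Fcgr2b-/- group differed, with mouse 4 the highest for Per2 and mouse 1 for Nr1d2. Per3, whose promoter window holds the 2 D-boxes, was -3.17, -3.74, -4.81 and -3.22 in wild-type and -3.58, -4.16, -3.23 and -2.92 in Fcgr2b-/- kidneys. It was -4.14, -2.94, -2.89 and -3.59 in double-deficient and -3.38, -3.27, -2.71 and -3.05 in Sting-deficient kidneys. Wild-type mouse 3 was the lowest of the 16 for both Per2 and Per3, and for Per3 it was the one reading not well above background.

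Clock, the constitutive partner of BMAL1, varied least. It was 2.01, 0.98, 1.20 and 1.15 in wild-type and 1.56, 0.96, 0.92 and 0.98 in Fcgr2b-/- kidneys. It was 1.24, 1.88, 1.13 and 1.18 in double-deficient and 1.58, 1.31, 1.61 and 1.37 in Sting-deficient kidneys. A single mouse stood above the rest in each of the first 3 groups, and these mice (wild-type 1, Fcgr2b-/- 1 and double-deficient 2) were the lowest of their genotypes for Nr1d1. In the Sting-deficient group it was otherwise, with mouse 3 the highest for both Clock and Nr1d1.

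Per1, the period gene that also answers to stress hormone and to growth stimuli, was the one member in which 2 genotypes did not overlap. Its level was 0.31, 0.21, 0.63 and 0.61 in the wild-type kidneys and 1.89, 1.02, 0.73 and 1.22 in the Fcgr2b-/- kidneys. In the double-deficient kidneys it was 0.86, 0.55, 2.71 and 0.998, and in the Sting-deficient kidneys 0.79, 0.63, 1.76 and 2.01. All 4 Fcgr2b-/- mice lay above all 4 wild-type mice, an arrangement found in this direction for 0.626% of the probes compared between these groups. The mean was 0.44 ± 0.21 in wild-type, 1.21 ± 0.49 in Fcgr2b-/-, 1.28 ± 0.97 in double-deficient and 1.30 ± 0.69 in Sting-deficient kidneys (SD, n = 4). No member stood apart in the lower direction there, beside 0.567% of probes. In the other 4 pairwise comparisons no member stood apart, beside, higher and lower, 0.707% and 0.312% of probes for double-deficient against Fcgr2b-/-, 0.312% and 0.236% for double-deficient against wild-type, 0.587% and 1.4% for Sting-deficient against wild-type, and 1.41% and 0.702% for double-deficient against Sting-deficient. The exact two-sided Mann-Whitney p for groups that stand apart is 0.0286, the smallest that 4 against 4 can give. In the fit across all probes by limma, the unadjusted p of Per1 was 0.101 for Fcgr2b-/- against wild-type, with an adjusted p of 1.0.

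None of the 9 tested clock genes was called between genotypes. A call needed an adjusted p under 0.05 and a 2-fold change in limma, with Benjamini-Hochberg adjustment over all 35629 probes. For Fcgr2b-/- against wild-type, 0 of 9 members were called, beside 0.0449% of all probes (16 probes). For the other 4 pairwise comparisons and for the interaction of both losses, 0 of 9 members and 0% of all probes were called. A moderated F-test for any difference among the 4 genotypes called 0 of 9 members and 0.014% of all probes. At an unadjusted p under 0.05 the members' count was also 0 in each of these 7 tests, while 3.3% of all probes passed for Fcgr2b-/- against wild-type, 1.75% for double-deficient against Fcgr2b-/-, 0.418% for double-deficient against wild-type, 3.73% for Sting-deficient against wild-type, 3.06% for double-deficient against Sting-deficient, 6.23% for the interaction and 1.72% for any difference.

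The pairwise differences behind these tests were at most 0.86 log2 units. For Fcgr2b-/- minus wild-type the 9 log2 differences ran from -0.32 (Nr1d1) to 0.77 (Per1), with a median of -0.04. For double-deficient minus Fcgr2b-/- they ran from -0.09 (Per2) to 0.33 (Tef), the narrowest range of the 5 pairwise comparisons. Those for Sting-deficient minus wild-type ran from -0.43 (Npas2) to 0.86 (Per1). Double-deficient minus wild-type gave -0.17 (Npas2) to 0.84 (Per1), and double-deficient minus Sting-deficient gave -0.29 (Per3) to 0.26 (Npas2). The 3 comparisons with wild-type share its 4 mice, which held the lowest Per1 mean. A p that misses the threshold here does not show that the genotypes have the same clock gene levels, since Dbp alone had an SD within genotypes of 1.14 log2 units.

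**Figure D2:**
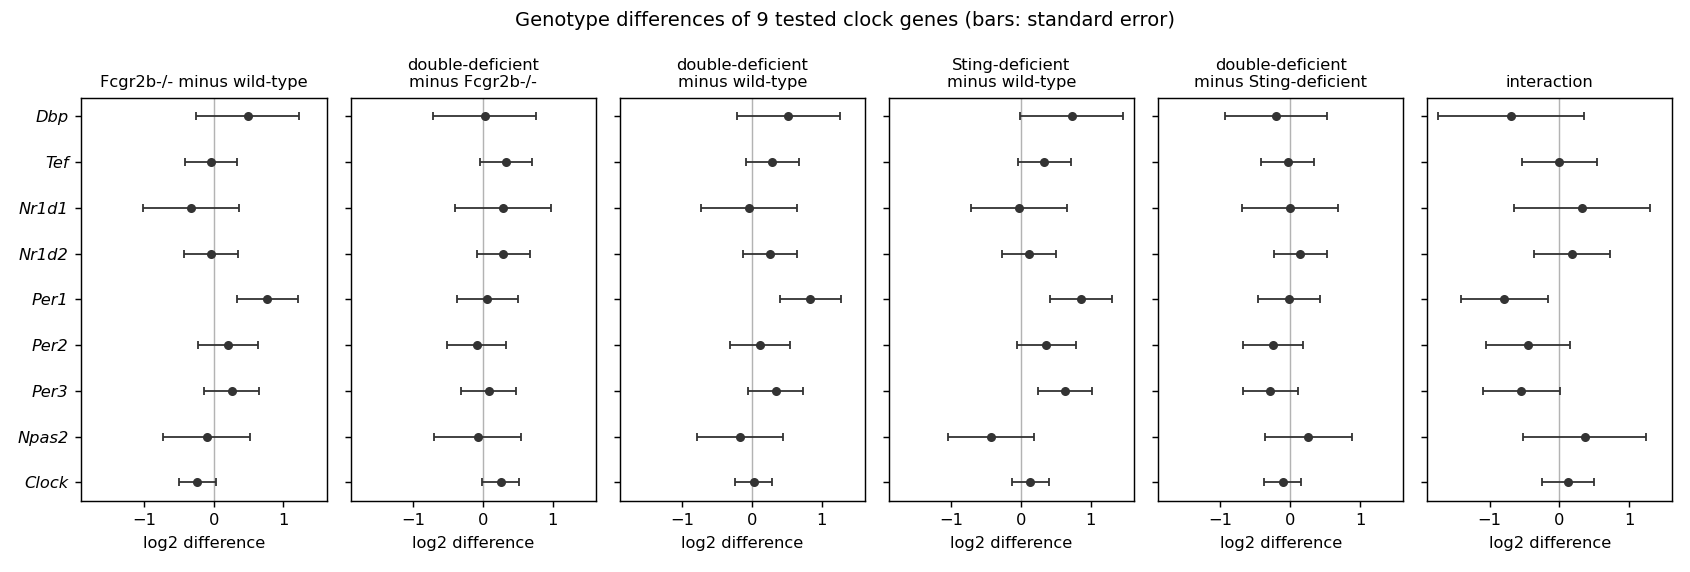
Log2 difference (horizontal axes) of the 9 tested clock genes in 5 genotype comparisons and for the interaction of Fcgr2b and Sting loss. Points are limma estimates and bars their standard errors (16 arrays); none was called, and the largest pairwise difference is 0.86 for Per1 in Sting-deficient minus wild-type kidneys.

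Other genes of the clock and its outputs were counted in the same fits from lists of the clock, its outputs, stress hormone targets and immediate early genes. Of 19 other clock genes 17 were tested, and none passed an unadjusted p under 0.05 for Fcgr2b-/- against wild-type, beside 3.3% of all probes. Fbxl21, which encodes an F-box protein that acts on cryptochromes, was the one to pass elsewhere. Its log2 difference was 1.19 (SE 0.46) for double-deficient minus Fcgr2b-/- and 1.12 (SE 0.46) for double-deficient minus Sting-deficient, with limma adjusted p of 1.0 and 0.890, and its interaction term was 1.82 (SE 0.65, limma adjusted p 0.668). Of 20 output genes, Cdkn1a, an inhibitor of the cell cycle, passed the unadjusted threshold for Fcgr2b-/- minus wild-type (0.82, SE 0.34, limma adjusted p 1.0). Lonrf3 passed for Sting-deficient minus wild-type (-0.73, SE 0.32, limma adjusted p 0.738), and the heat shock gene Hspa1b for double-deficient minus Sting-deficient (-1.23, SE 0.43, limma adjusted p 0.890). Errfi1, a stress hormone target, passed for double-deficient minus Sting-deficient (0.76, SE 0.29, limma adjusted p 0.890) and for the interaction (0.95, SE 0.42, limma adjusted p 0.668).

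Immediate early genes share with Per1 a response to growth and stress signals. Of 9 tested for Fcgr2b-/- against wild-type, 6 passed an unadjusted p under 0.05, all with higher means in Fcgr2b-/- kidneys, beside 3.3% of all probes in either direction, and 0 passed after adjustment. The list was chosen with earlier results of these data known, so its counts, here and below, are a description and no test of the list. Junb had a log2 difference of 1.01 (SE 0.28, limma adjusted p 0.683), Nr4a1 of 2.07 (SE 0.54, limma adjusted p 0.589) and Fos of 2.34 (SE 0.77, limma adjusted p 1.0). For double-deficient minus Fcgr2b-/-, 3 of the 9 passed the unadjusted threshold with lower means, beside 1.75% of all probes. They were Fos at -1.70 (SE 0.77), Junb at -0.79 (SE 0.28) and Atf3 at -1.39 (SE 0.56), each with a limma adjusted p of 1.0. For the interaction 6 of the 9 passed, all negative, beside 6.23% of all probes, and 0 after adjustment. Jun passed for Sting-deficient minus wild-type (1.0, SE 0.39, limma adjusted p 0.738). The mean deviation of the 9 genes from their means over all mice ranged from -1.11 to 0.03 in wild-type, -0.36 to 1.55 in Fcgr2b-/-, -0.37 to 0.19 in double-deficient and -0.16 to 0.28 in Sting-deficient kidneys. With genotype means removed, the r of Per1 with this score over 16 mice was 0.47 (rho = 0.43, permutation p = 0.0239, adjusted p = 0.525 over 22 relations). It was 0.77 and 0.79 within the slides and 0.35 without the 2 mice of the most extreme score. The part of these genes in the Per1 values was not tested.

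Between mice of one genotype the clock genes varied unequally. The pooled SD within genotypes was 1.14 log2 units for Dbp, 1.07 for Nr1d1 and 0.95 for Npas2. It was 0.65 for Per1, 0.63 for Per2, 0.57 for Per3, 0.55 for both Nr1d2 and Tef, and 0.34 for Clock. Among the 26273 probes well above background on all 16 arrays the median SD was 0.49, and the SD of Dbp lay at percentile 96.8, that of Nr1d1 at percentile 95.4 and that of Clock at percentile 21.0. Of the 7 members measured on all arrays, 6 lay above that median. Ciart had an SD of 1.22, and 0.81 without Sting-deficient mouse 3, most of its readings being at background.

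**Figure D3:**
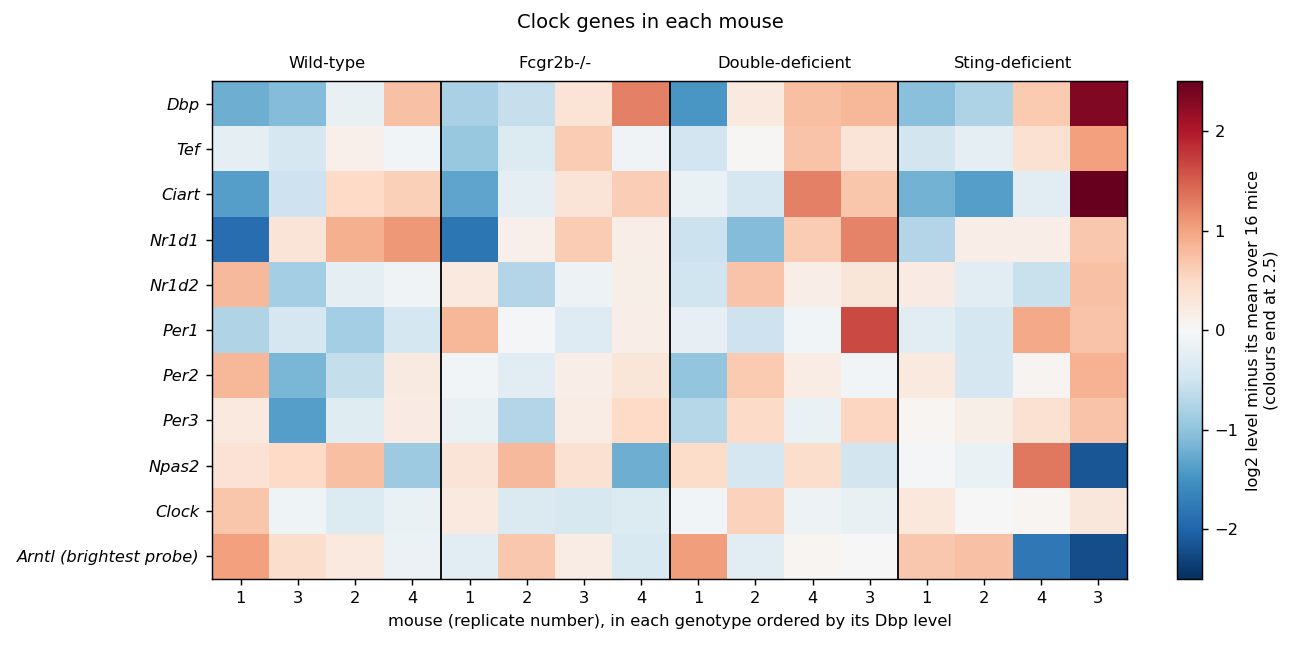
Deviation of each clock gene and of Arntl (rows) from its mean over 16 mice, as log2 difference in colour, for each mouse (columns, grouped by genotype and ordered by Dbp). Red is above and blue below the mean; the right-hand mouse of each genotype is highest in Dbp and has the lowest Npas2 reading, and in 3 of 4 genotypes the lowest reading of the brightest Arntl probe, which is the one drawn.

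Members were then compared pair by pair on their deviations from the genotype means in the 16 mice. Mice were shuffled within their genotype 100000 times for each p, with Benjamini-Hochberg adjustment over the 45 pairs. Of the 45 pairs, 11 had an adjusted p under 0.05, 29 correlations were positive and 16 negative. Removing genotype means leaves 12 degrees of freedom, and all genes of a mouse share its array. The r within a slide, here and elsewhere, removes the genotype means of that slide's mice alone, at 1 to 3 mice per genotype. The only double-deficient mouse of the first slide and the only Fcgr2b-/- mouse of the second then have no deviation. Such r rest on few degrees of freedom and are given as a description. The genes fell into pairs that moved together and pairs that moved apart.

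Dbp, Tef, Ciart and Nr1d1 were positively correlated, with all 6 of their pairs past the threshold as first computed. These are also the 4 members with the largest differences between the slides within genotypes, each higher on the second slide. With the slide as a block 2 of the 6 pairs passed, Dbp with Ciart and Tef with Ciart, and with the replicate number as a block none did. Dbp correlated with Tef at r = 0.81 (rho = 0.81, permutation p = 0.00183, adjusted p = 0.0137), and without the 2 mice farthest from the median of Dbp at r = 0.64. Within the first slide this r was 0.82 and within the second 0.79, and with the slide as a block it was 0.67 (adjusted p = 0.0991 by permutation). Dbp correlated with Ciart at r = 0.87 (rho = 0.87, permutation p = 0.00018, adjusted p = 0.00574), at 0.84 without the 2 farthest mice and at 0.85 and 0.86 within the slides. Of the 16 Ciart readings, however, 14 were not well above background, and its second probe followed the first at r = 0.46. With such readings set to their bounds, r was 0.51 for Dbp with Ciart, 0.43 for Tef with Ciart and 0.25 for Nr1d1 with Ciart (adjusted p = 0.404, 0.495 and 0.551 by permutation), so none of the 3 Ciart pairs passed. In that setting Dbp with Tef still passed (adjusted p = 0.0274 by permutation), as did Nr1d1 with Clock and all 3 pairs among Per2, Per3 and Nr1d2. Dbp with Nr1d1 gave r = 0.61 (rho = 0.71, permutation p = 0.0116, adjusted p = 0.0476), with 0.67 and 0.57 within the slides. Its call held only when wild-type mouse 3, Fcgr2b-/- mouse 2 or double-deficient mouse 1 or 2 was the one left out, and was lost without any of the other 12 mice (adjusted p up to 0.0990 by permutation). Tef with Nr1d1 gave r = 0.62 (rho = 0.67, permutation p = 0.00922, adjusted p = 0.0415), a call lost without any of 7 mice, namely wild-type 2, Fcgr2b-/- 1, 3 and 4, double-deficient 4, and Sting-deficient 1 and 3 (adjusted p up to 0.0966 by permutation). Dbp with Per3 gave r = 0.63 (rho = 0.59, permutation p = 0.00733, adjusted p = 0.0366), a call lost without any of 8 mice, namely wild-type 2, Fcgr2b-/- 3 and 4, double-deficient 1 and 3, and Sting-deficient 1, 2 and 3 (adjusted p up to 0.132 by permutation).

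Per2, Per3 and Nr1d2 formed a second set. Per2 correlated with Nr1d2 at r = 0.87 (rho = 0.85, permutation p = 0.00037, adjusted p = 0.00574), at 0.79 without the 2 mice farthest from the median of Per2, and at 0.85 and 0.87 within the slides. The second Nr1d2 probe gave r = 0.86 with Per2. A second, dimmer Per2 probe, well above background on 7 arrays, did not follow the one used (r = -0.33 over the 16 mice). Per2 with Per3 gave r = 0.82 (rho = 0.78, permutation p = 0.00066, adjusted p = 0.00594), and 0.63 and 0.80 within the slides. Per3 with Nr1d2 gave r = 0.77 (rho = 0.71, permutation p = 0.00323, adjusted p = 0.0182), a call lost without Fcgr2b-/- mouse 2, double-deficient mouse 1 or Sting-deficient mouse 3 (adjusted p up to 0.0610 by permutation). This call was also lost with normexp background and with quantile scaling, and the call of Per2 with Per3 with normexp background.

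Nr1d1 and Clock moved in opposite directions. Their r was -0.88 (rho = -0.84, permutation p = 0.00248, adjusted p = 0.0159), and -0.66 without the 2 mice farthest from the median of Nr1d1. Within the slides it was -0.99 and -0.85, and the second bright Clock probe gave -0.87. The call was lost with normexp background and with array median scaling. Nr1d1 with Nr1d2, the paired REV-ERB genes, gave r = -0.37 (rho = -0.19, permutation p = 0.229, adjusted p = 0.400), with -0.81 and 0.01 within the slides. Per1 correlated with no other member past the threshold, its largest r being 0.39 with Dbp (permutation p = 0.206, adjusted p = 0.386).

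**Figure D4:**
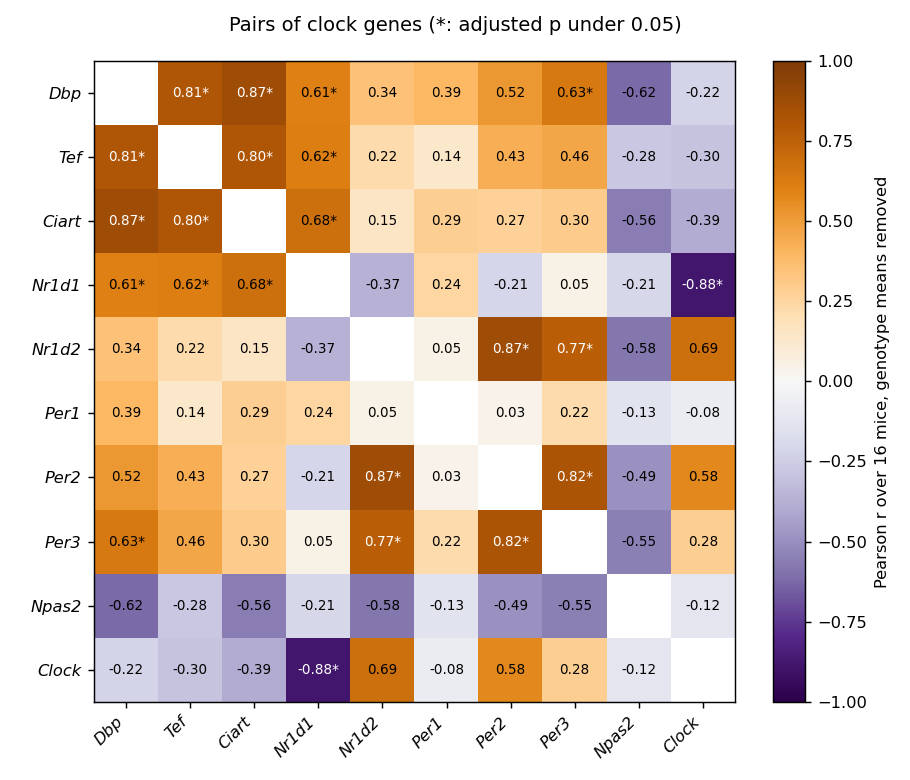
Pearson r of each pair of the 10 clock genes over 16 mice with genotype means removed (colour and number), with an asterisk where the p adjusted over 45 pairs was under 0.05. The 6 pairs among Dbp, Tef, Ciart and Nr1d1 and the 3 among Per2, Per3 and Nr1d2 carry asterisks, Ciart being at background on 14 arrays, and Nr1d1 with Clock has the most negative value, -0.88.

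Neither of the member activators passed against Dbp. With Clock the r was -0.22 (rho = -0.31, permutation p = 0.389, adjusted p = 0.556). With Npas2 the r was -0.62 (rho = -0.41, permutation p = 0.0451, adjusted p = 0.135), and -0.35 with the dim readings at their bounds (adjusted p = 0.525 by permutation). It was -0.77 and -0.82 within the slides and -0.32 without the 2 mice farthest from the median of Dbp. Single mice decided its size: it was -0.38 without Sting-deficient mouse 3 (adjusted p = 0.407 by permutation) and -0.82 without Sting-deficient mouse 4, the mouse of the dimmest array (adjusted p = 0.0348 by permutation).

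Against the brightest Arntl probe Dbp had an r of -0.82 (rho = -0.77, permutation p = 0.00143, adjusted p = 0.0143 over 10 relations), which was -0.68 without the 2 mice farthest from the median of Dbp and -0.60 and -0.75 within the slides. Since the probes differed, 5 summaries of Arntl were compared. The other 2 probes gave r = -0.85 (adjusted p = 0.00745) and -0.79 (adjusted p = 0.0165) with Dbp by permutation, and the median of values centred per probe gave -0.86 (adjusted p = 0.00927). The median of uncentred levels, which takes the level of one probe in some mice and of another in others, gave -0.94. When Arntl was entered in limma as a covariate beside genotype means, 0 of 35625 probes were called with each of the 3 probes and with the centred median, where the brighter Dbp probe had slopes from -1.58 to -1.04 and limma adjusted p from 0.553 to 1.0. Only the uncentred median called any probe, 2 of 35625, both of Dbp (limma adjusted p 0.00574), and since the 4 other summaries called none, this is not taken as a result. With the brightest probe no other member passed over the 10 relations. With the centred median Per3 (r = -0.67, adjusted p = 0.00927), Per2 (r = -0.60, adjusted p = 0.0473), Ciart (r = -0.73, adjusted p = 0.0473) and Npas2 (r = 0.90, adjusted p = 0.0019) also passed by permutation, the last 2 with the dim readings above.

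**Figure D5:**
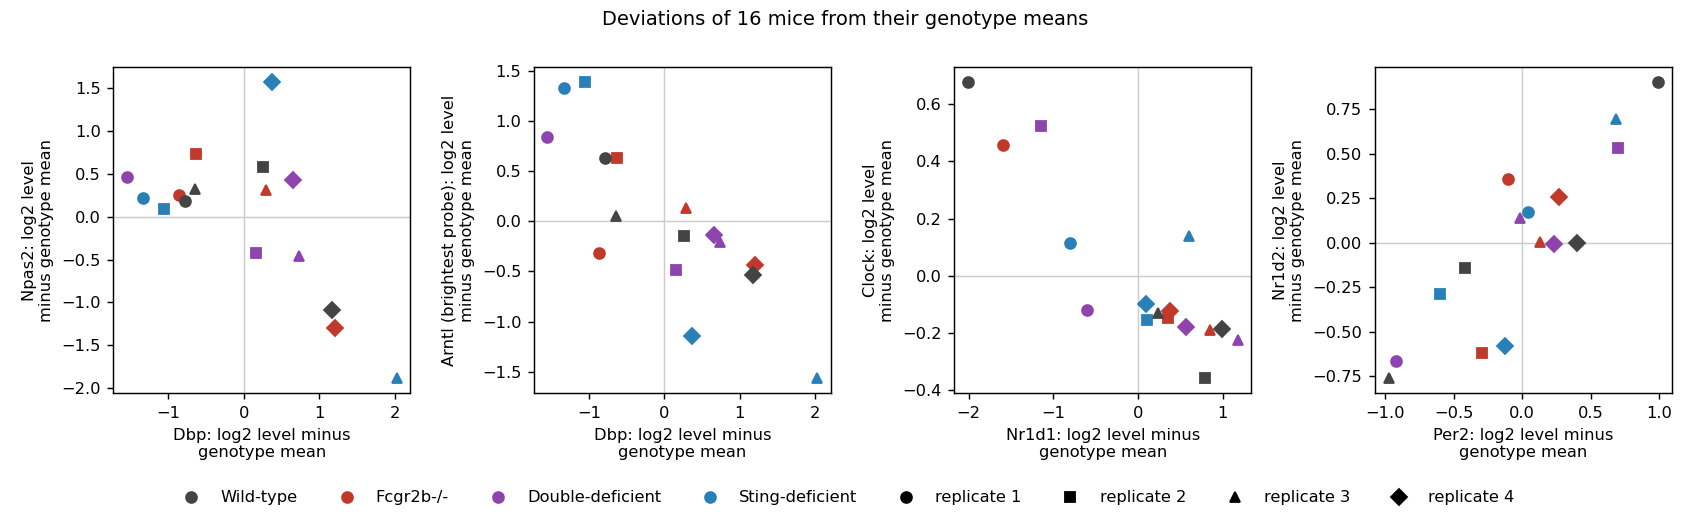
Deviations of 16 mice from their genotype means (log2 units on all axes), for Dbp with Npas2, Dbp with the brightest Arntl probe, Nr1d1 with Clock, and Per2 with Nr1d2. Colour gives the genotype and marker shape the replicate number; r is -0.62, -0.82, -0.88 and 0.87 from left to right.

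Slides lay beside this pattern. Within genotypes Dbp was 1.36 log2 units higher on the second slide than on the first, Ciart 1.15, Nr1d1 0.96 and Tef 0.66. Per1 was 0.42 higher, Per2 0.30 and Per3 0.25, whereas Nr1d2 differed by 0.01, Clock by -0.10 and Npas2 by -0.35. Whether mice of a slide were also taken at a shared time is not given in the sources used here, and the part of sampling time in these values was not tested. With the slide as a block the SD of Dbp within genotypes was 0.91 in place of 1.14, and 6 member pairs passed in place of 11. Over all 16 mice Dbp had an r of -0.11 with array brightness, the log2 75th percentile (rho = -0.03, permutation p = 0.755, adjusted p = 0.971 over 34 relations), and within the slides 0.31 and 0.80. For Npas2 it was -0.32 (rho = -0.55, permutation p = 0.398, adjusted p = 0.971), with -0.81 and -0.40 within the slides, and -0.67 without the 2 mice farthest from the median of Npas2 but 0.11 without the 2 farthest from the median brightness. The part of brightness in the Npas2 values was not tested.

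Among the scores compared with Dbp, that of stress hormone targets had the largest r, which did not pass after adjustment. The mean deviation of 9 glucocorticoid-responsive genes, Per1 left out, correlated with Dbp at r = 0.74 (rho = 0.81, permutation p = 0.00219, adjusted p = 0.0745 over 34 relations, and 0.0343 for rho). It was 0.50 without the 2 mice farthest from the median of Dbp, and 0.65 and 0.54 within the slides. Gene by gene, 3 of the 9 had a slope on Dbp with an unadjusted limma p under 0.05, beside 3.65% of all probes, and 0 passed after adjustment. The median slope of the 9 was 0.04. Scores of 11 cell type marker lists gave adjusted p of 0.971 or higher for r with both Dbp and Npas2.

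Entered as covariates in limma, Npas2 and Dbp called no probe at an adjusted p under 0.05. For Npas2 2% of all probes passed an unadjusted p under 0.05 (712 of 35628), and 3 of 8 members did. The slopes were -0.74 (SE 0.26) for Dbp, -0.34 (SE 0.14) for Nr1d2 and -0.33 (SE 0.15) for Per3, all with limma adjusted p of 1.0. With the Npas2 readings as given, all 8 members had negative slopes on it, whereas 55.0% of all probes had positive ones. The members also correlate with each other. With the 4 dim Npas2 readings at their bounds, the r of Tef with Npas2 was 0.02. It stayed negative for the other tested members, at -0.005 for Per1. For Dbp 3.65% of all probes passed the unadjusted threshold (1299 of 35627) and 4 of 8 members did. Those slopes were 0.39 (SE 0.09) for Tef, 0.56 (SE 0.21) for Nr1d1, 0.32 (SE 0.12) for Per3 and -0.52 (SE 0.18) for Npas2, with limma adjusted p of 0.980. Hlf, the remaining PAR gene (0.33, SE 0.11), Usp2, a deubiquitinase gene of the clock's output (0.61, SE 0.15), and the stress hormone targets Fkbp5 (0.61, SE 0.23), Zbtb16 (0.39, SE 0.17) and Klf9 (0.28, SE 0.11) had positive slopes on Dbp with unadjusted limma p under 0.05. Tardbp (-0.21, SE 0.09) and Lonrf3 (-0.28, SE 0.09) had negative ones, as did the brightest probe of Arntl (-0.65, SE 0.13), each with a limma adjusted p of 0.980.

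The genes most alike in pattern were ranked by r over the 16 mice among 13848 named genes well above background on all arrays. The highest r with Dbp was that of Tef (0.81), and Usp2 held place 4 (0.75), after Gm17778 (0.77) and Slc26a2 (0.77). The lowest were Ypel2 (-0.86), Prim1 (-0.83) and Arntl (-0.82). With Npas2, Cby2 (0.87) and Fhl3 (0.87) were the most alike, and Ncl (-0.82), Leprotl1 (-0.79) and the output gene Wee1 (-0.78) the most opposed. No member stood among the 10 highest or lowest for Npas2, where Dbp held place 21 on the negative side.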

How the data were processed

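RNA of whole kidneys was labelled with Cy3 from 100 ng per mouse and hybridised to 1-colour Agilent arrays. Per the labels, the authors extracted intensities with Agilent Feature Extraction 11.0. The deposited scanner files give a processed intensity per spot, and the deposited value table holds log2 values whose scaling is not given in the sources used here. The processed intensity was divided by its 75th percentile per array and log2 transformed after outlier spots were dropped, and spots of a probe were averaged. Probes were named through RefSeq accessions (32994 of 56605). Probes that were well above background on 4 or more of the 16 arrays entered limma 3.58.1 in R 4.3.3, with a mean per genotype and Benjamini-Hochberg adjustment. The number of arrays limits precision, and p-values measure the spread between these mice. Permutations ran in Python 3.11.15 with numpy 2.4.6. Every member is named. Other listed genes are named where the unadjusted p was under 0.05, and the most alike genes by rank of r. The members and lists were chosen with earlier results of these data known. Alternatives covered background correction, scaling, the value table, filters, tests, blocks and leaving out each mouse, with 5 summaries of Arntl and bounds for dim readings added after the values were seen.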

Additional observations from a re-analysis of the deposited data

Results flagged for a closer look

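Within genotypes, 2 of 40 sets of 4 mice held a reading set apart from the other 3 by more than 0.829 of the whole range, and chance alone gives about 1 such set in 20. Both concern Clock. It read 1.56 in Fcgr2b-/- mouse 1, where the other 3 mice lay between 0.92 and 0.98. It read 1.88 in double-deficient mouse 2, where the other 3 lay between 1.13 and 1.24. Each of these mice had the lowest Nr1d1 of its genotype.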

How the results depend on the processing

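No tested member was called between genotypes under any alternative run, which covered normexp background, quantile and median scaling, the value table, 2 other filters, other tests, blocks and leaving out each mouse. Over all probes the calls ranged from 0 to 144 for Fcgr2b-/- against wild-type (16 as reported), 0 to 169 for double-deficient against Sting-deficient, 0 to 117 for Sting-deficient against wild-type, 0 to 58 for double-deficient against wild-type, 0 to 38 for double-deficient against Fcgr2b-/- (0 as reported in these 4) and 0 to 19 for any difference (5 as reported). In the 5 pairwise comparisons each upper end came from the Mann-Whitney test with an unadjusted p under 0.05. With adjusted p the most calls were 39 for Fcgr2b-/- against wild-type, 3 for double-deficient against wild-type and 2 for double-deficient against Sting-deficient. They were 0 for Sting-deficient against wild-type and for double-deficient against Fcgr2b-/-. With normexp background the probes that followed Npas2 rose from 0 to 8344 of 35628, 8226 of them with positive slopes. None of the 8 tested members was among them, and the cause was not tested. With Arntl in place of Npas2, tried in 5 summaries after the values were seen, 1 member (Dbp) was called with the uncentred median of its probes and 0 with the other 4. Of the pairs, 11 passed as reported, 2 with normexp background, 6 with the slide as a block, 5 with dim readings at their bounds (chosen after seeing the data) and 8 to 13 on leaving out a mouse; the cause was not tested. Of those 11 pairs, 7 passed whichever mouse was left out, and Per2 with Nr1d2 passed under all 23 alternatives. These alternatives all read each gene through its brightest probe. With normexp background the slope of Per3 on Npas2 turned to 0.10 and their r to 0.17.

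Mice of different genotypes share replicate numbers, and same-numbered mice deviated together with r from -0.60 to 0.71 over probes. The median r was 0.27 for number 1, -0.07 for number 2, -0.11 for number 3 and -0.07 for number 4. Of 16 arrays, 5 were closest to one of their own number. The numbers were not taken as pairs, and a link among the mice numbered 1 was not tested. With the replicate number as a block, 0 members were called between genotypes, 8 pairs passed, the slope of Nr1d1 on Dbp turned to -0.042 and their r to -0.049. The SD of Dbp within genotypes ranged from 0.80 to 1.19 over all alternatives. With normexp background the SD fell to 0.25 for Per3, 0.42 for Npas2 and 0.42 for Ciart, and with the replicate block to 0.69 for Nr1d1; the cause was not tested. Npas2 and Ciart are dim, so their low readings bound the signal from above only.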

Other observations

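Some mice share the first number of their label, whose meaning the labels do not give. The fits above treated all 16 mice as independent. With this number as a random block in limma, the consensus correlation of mice that share it was 0.82 over probes. In that setting 0 probes were called for Fcgr2b-/- against wild-type, in place of 16. For double-deficient against Fcgr2b-/-, 3451 probes had an unadjusted limma p under 0.05, in place of 625, and 0 were called. The mice numbered 88, Fcgr2b-/- mouse 4 and double-deficient mouse 3, had Dbp levels of 3.80 and 3.36 and each held the lowest Npas2 reading of its genotype. The mice numbered 89, Fcgr2b-/- mouse 3 and double-deficient mouse 4, had Dbp levels of 2.88 and 3.28. The mice numbered 114, wild-type mice 3 and 4, lay apart at 1.46 and 3.28.

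Scnn1a, the gene of the alpha subunit of the epithelial sodium channel and an output of the kidney clock, had a within-genotype SD of 1.22 log2 units, at percentile 97.7 among probes well above background on all arrays. Its slope on Dbp did not pass an unadjusted limma p under 0.05. Among the listed markers of thick limb with distal tubule the SD was 1.47 for Slc12a3, 1.42 for Pvalb, 0.57 for Umod and 0.35 for Slc12a1. The part of tubule content in the Scnn1a values was not tested. Nfil3, the gene of the repressor that competes with DBP for the D-box, had an SD of 0.81.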
